A study of Mus musculus with 7 samples.

Results

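The Vps (vacuolar protein sorting) and Snx (sorting nexin) genes were followed in a map of H3K79me2, dimethylation of lysine 79 on histone H3, in mouse macrophages. They were chosen by name: every RefSeq coding gene on chromosomes 1 to 19 of mm10 whose symbol begins with Vps or Snx and a digit. The annotation held 64 such genes, and 60 of them (34 of 35 Vps genes and 26 of 29 Snx genes) were overlapped by at least 1 of the 29397 regions in the count table. Those without a region were Vps37d, Snx21, Snx22 and Snx31. In all, 279 regions overlapped these genes, and each gene was represented by the one with the most counts on average, called its top region, which gave 60 distinct regions. A region was present for 93.75% of the Vps and Snx genes, against 44.8% of all 20661 coding genes on the same chromosomes.

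Bone marrow-derived macrophages of C57BL/6 mice, grown for 7 to 8 days with L929-conditioned medium as the source of M-CSF, received 1 µM SGC0946 or its solvent DMSO while they differentiated. SGC0946 inhibits DOT1L, the methyltransferase that places H3K79me2 along the early part of transcribed genes. Each treatment had 3 libraries that the submitters call biological replicates, made with an H3K79me2 antibody. The protocol speaks of wild-type and knockout mice without assigning either to these libraries, and no spike-in chromatin is named. A loss of the mark per cell, a loss in fewer cells and a difference in depth between libraries cannot be told apart in such pooled chromatin.

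Endosomes receive what a cell takes up and decide which proteins return to the surface or the Golgi and which go to the lysosome. Sorting nexins bind endosomal lipids through a PX domain, and those with a BAR domain bend the membrane into tubules. Retromer and retriever select cargo for return, ESCRT complexes pack cargo into vesicles bound for degradation, and the HOPS, CORVET, GARP and EARP complexes tether membranes before they fuse. Macrophages depend on these routes to handle engulfed particles and lipoproteins.

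The DMSO libraries held 16.7 to 19.5 M counts and the SGC0946 libraries 2.95 to 3.13 M. All 10 macrophage markers examined had a region, against 6 of 23 markers of other cell types (Lck, Mpo, Klf1, Zbtb46, Cxcl12 and Runx2). Of these, the dendritic cell factor Zbtb46 carried a mean of 1798 DMSO counts, and Lck, Mpo and Klf1 at most 4. The part of other cell types in the results below was not tested. The regions of the 60 genes took 1.15 to 1.17% of the counts of each DMSO library and 1.31 to 1.34% of each SGC0946 library.

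Several related genes differed in the part of their counts kept with the inhibitor. The bases before annotated starts of 3 such pairs, picked after the data had been seen, are set side by side. The test of their count ratios, given below, could not pass for any pair. Each is the stretch of 250 bases immediately upstream of the RefSeq start, written 5′ to 3′ in the direction of transcription. Vps26a (chr10:62486806-62487055, minus strand) and Vps26b (chr9:27030095-27030344, minus strand) encode alternative retromer subunits. Vps4b (chr1:106796726-106796975, minus strand) and Vps4a (chr8:107031019-107031268, plus strand) encode the ATPases that take ESCRT filaments apart. Snx5 (chr2:144270573-144270822, minus strand) and Snx6 (chr12:54795663-54795912, minus strand) encode BAR-domain sorting nexins that can replace each other as partners of SNX1 and SNX2. The Snx5 window lies wholly inside the RefSeq span of its gene, which ends at 144270902. The Snx6 window lies partly inside its gene span, which ends at 54795749. For these genes the start used is therefore not the outer end of the span. Sequences are from RefSeq on GRCm38.p6, the assembly of mm10. Capitals mark matches to CACGTG (E-box), CCGGAAG (ETS), GGGCGG (GC box), CCAAT or TATAAA on either strand.
Vps26a: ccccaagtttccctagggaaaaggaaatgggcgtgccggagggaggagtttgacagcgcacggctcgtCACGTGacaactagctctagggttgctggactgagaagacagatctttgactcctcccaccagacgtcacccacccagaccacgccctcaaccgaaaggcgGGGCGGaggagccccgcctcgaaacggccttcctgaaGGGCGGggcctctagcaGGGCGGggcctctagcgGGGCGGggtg
Vps26b: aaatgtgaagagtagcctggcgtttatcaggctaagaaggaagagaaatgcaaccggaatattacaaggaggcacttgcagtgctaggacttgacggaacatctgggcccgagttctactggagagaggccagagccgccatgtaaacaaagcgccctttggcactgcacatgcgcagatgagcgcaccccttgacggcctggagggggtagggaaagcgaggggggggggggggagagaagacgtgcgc
Vps4b: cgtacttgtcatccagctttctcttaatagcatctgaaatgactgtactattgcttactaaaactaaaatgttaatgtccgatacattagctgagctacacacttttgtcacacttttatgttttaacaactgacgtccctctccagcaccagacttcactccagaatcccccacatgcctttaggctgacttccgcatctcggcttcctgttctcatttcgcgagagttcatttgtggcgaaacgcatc
Vps4a: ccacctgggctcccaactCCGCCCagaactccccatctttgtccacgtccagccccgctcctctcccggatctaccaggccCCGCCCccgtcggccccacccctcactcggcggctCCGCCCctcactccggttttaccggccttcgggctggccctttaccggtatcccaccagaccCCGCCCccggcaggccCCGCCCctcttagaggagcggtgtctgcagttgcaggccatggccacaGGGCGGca
Snx5: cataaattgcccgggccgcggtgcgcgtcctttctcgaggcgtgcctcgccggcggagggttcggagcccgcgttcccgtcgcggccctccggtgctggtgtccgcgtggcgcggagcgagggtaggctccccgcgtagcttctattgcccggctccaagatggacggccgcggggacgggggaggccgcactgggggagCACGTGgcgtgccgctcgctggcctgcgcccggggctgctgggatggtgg
Snx6: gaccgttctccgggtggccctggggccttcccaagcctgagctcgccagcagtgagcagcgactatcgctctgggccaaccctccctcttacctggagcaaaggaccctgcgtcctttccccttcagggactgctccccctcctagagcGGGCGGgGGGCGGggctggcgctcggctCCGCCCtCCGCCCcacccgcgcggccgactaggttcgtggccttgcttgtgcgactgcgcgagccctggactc

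The window of Vps26a held 4 GC boxes and 1 E-box, and that of Vps26b held none of the 5 motifs. For the ATPases the order was the other way: 6 GC boxes stood before Vps4a and no listed motif before Vps4b, whose window was 43.2% G and C against 70.8% for Vps4a. Snx5 had 1 E-box and 36 CpG dinucleotides, and Snx6 had 4 GC boxes and 21 CpG. Of the 3 genes of these pairs that kept more of their counts, Vps26a and Snx5 had an E-box and Vps4b none of the motifs. No listed motif was thus shared by the 3. RefSeq start windows were at hand for 39 of the 60 genes. A GC box occurred in 66.7% of the 39 windows and in 33.0% of all 27025 windows, an E-box in 15.4% and 6.04%, an ETS motif in 17.9% and 7.07%, a CCAAT box in 33.3% and 34.5%, and a TATA box in 7.69% and 13.0%. The median window of the 39 was 62% G and C with 19 CpG, against 52% and 6 in all windows. The 27025 windows, 1 per gene, were not filtered for coding genes or for a region, and the 39 all belong to coding genes with a region. Whether genes with a region differ in the same way at large was not tested. These are matches of letters and give no evidence of binding.

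All 60 genes had fewer H3K79me2 counts with SGC0946. Unscaled counts measure a loss of the mark only if the libraries were equally deep, which was assumed and not tested. In a test on unscaled counts (edgeR's quasi-likelihood test, Benjamini-Hochberg adjusted over all regions) 60 of 60 fell and none rose, while 99.9% of 8835 coding genes tested fell and 0.0226% rose. Every SGC0946 count lay under every DMSO count for all 60 genes, as it did for 96.1% of genes with a region. The mean SGC0946 count as a percentage of the mean DMSO count, called the percentage kept, had a median of 12.7% over the 60 genes and ran from 9.52 to 53.1%. Over all 8833 genes tested the median was 13.9%, with quartiles of 12.4 and 16.8%. The median of the Vps and Snx genes thus lay below that of all genes and close to the lower quartile of all genes. The 60 genes differed from each other mainly in how far a few of them departed from their own median.

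**Figure D1:**
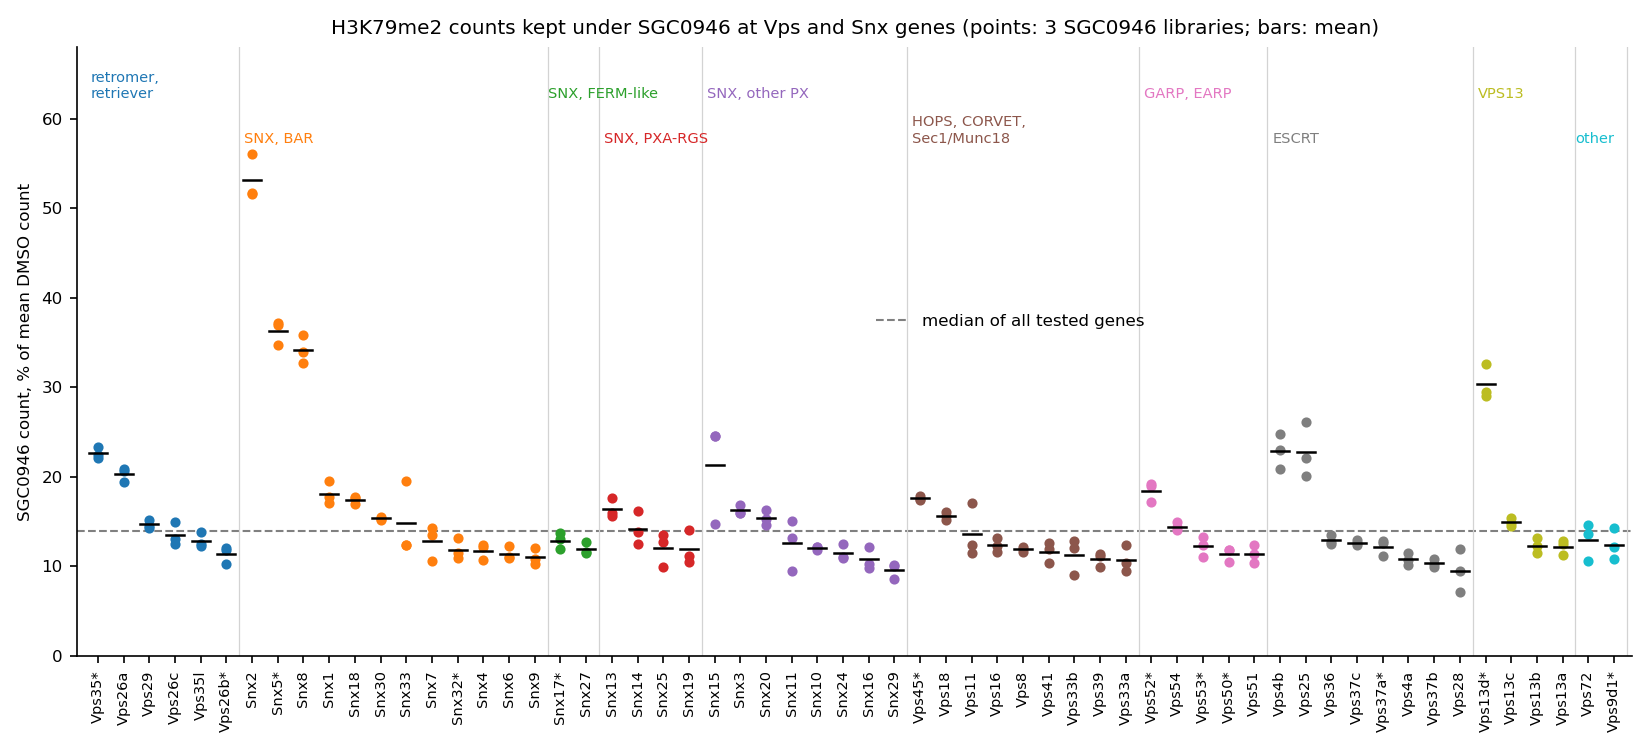
Percentage of DMSO counts kept with SGC0946 (y axis) for the 60 genes (x axis), in colours by role group; the 3 points of a gene are the counts of single SGC0946 libraries over the mean DMSO count, black bars their mean, and the dashed line the median of all tested genes. An asterisk marks a gene whose region also overlaps another coding gene. Snx2 stands at 53.1% and Snx5, Snx8 and Vps13d between 30.3 and 36.3%, while most other genes lie near the median of 12.7%.

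To compare genes with each other, counts were divided by the library total, so that a gene that loses less than the rest of the library takes a higher share. The share of 7 genes was higher with SGC0946 and that of 42 was lower, and 11 did not pass the test (adjusted p under 0.05). Among all 8833 genes 9.92% were higher and 51.1% lower, and among all 23367 regions 6.16% and 23.3%. The median log2 change of share was -0.43 for the 60 genes and -0.29 for all genes. By per-library values, the SGC0946 shares lay entirely above the DMSO shares in 9 genes and entirely below in 44, against 11.8% and 57.8% of all genes. With the TMM scaling of edgeR the 60 genes divided into 11 higher and 30 lower, and all genes into 12.4% higher and 33.3% lower.

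Core retromer, the trimer of VPS35, VPS29 and a VPS26 subunit that gathers cargo for return, divided by subunit. Vps35 (chr8:85286673-85304886) had 3931, 4125 and 4727 counts with DMSO and 995, 957 and 941 with SGC0946. It kept 22.6% ± 1.33 (SE, n = 3 libraries per group), and its share rose by 0.41 ± 0.044 (log2, SE; adjusted p = 4.4e-12). All 3 SGC0946 shares, near 318 counts per M, were above the DMSO shares of 235 to 243. A stretch making up 28.9% of this region lies in the neighbouring gene Orc6, a subunit of the origin recognition complex.

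Vps26a (chr10:62460362-62486954) had 6883, 7200 and 8007 counts with DMSO and 1521, 1428 and 1539 with SGC0946. It kept 20.3% ± 1.03, and its share rose by 0.25 ± 0.041 (adjusted p = 5.5e-07). The groups did not overlap in either counts or shares. When libraries were scaled on the sparsest 25% of regions instead, the changes of Vps26a and Vps35 were -0.15 and -0.00081 and did not pass, so the direction of both depended on the scaling.

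Vps26b (chr9:27024085-27036814), the alternative subunit, had 1456, 1471 and 1621 counts with DMSO and 183, 180 and 156 with SGC0946. It kept 11.4% ± 0.689 and its share fell by 0.58 ± 0.073 (adjusted p = 5.3e-10). Its region reaches into the condensin gene Ncapd3 for 52.2% of its length, and another region whose longest overlap is with Vps26b fell in share by 0.51 (adjusted p = 0.0045). Vps29 (chr5:122354549-122361009), the subunit that retromer and retriever share, had 1807, 1912 and 2119 DMSO counts and 295, 279 and 283 SGC0946 counts. Its share fell by 0.22 ± 0.061 (adjusted p = 0.0033), a call that was lost with TMM factors, DESeq2 size factors and DESeq2's Wald test. The remaining retriever subunits also fell in share, Vps35l by 0.41 and Vps26c by 0.34. In this group of 6, 2 genes were higher and 4 lower, beside 9.92% and 51.1% of all genes, with a median of 14.1% kept.

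**Figure D2:**
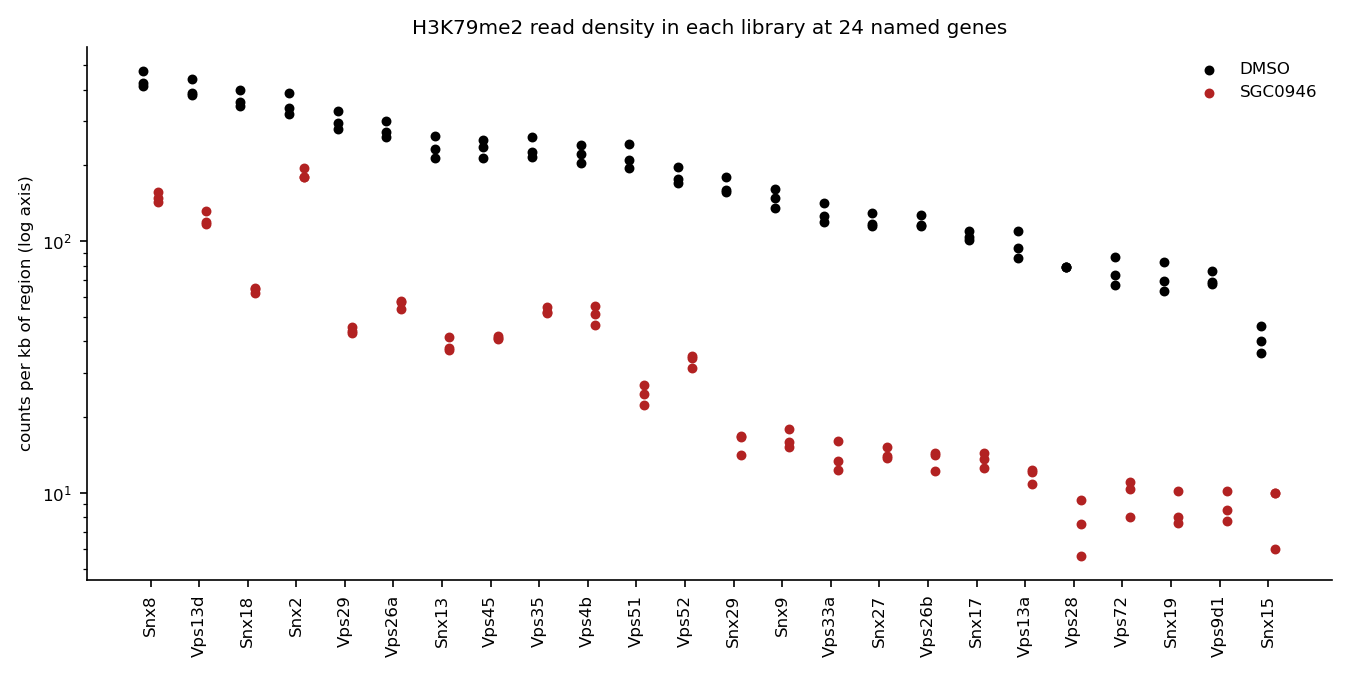
H3K79me2 counts per kb of region (log axis) in each of the 3 DMSO and 3 SGC0946 libraries for the 24 genes named by rule, ordered from dense to sparse, 1 point per library. Each gene's SGC0946 points lie below its DMSO points, and the gap is narrowest for Snx2, at 320 to 388 counts per kb with DMSO and 180 to 195 with SGC0946.

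Sorting nexins with a BAR domain held 3 of the 7 genes that gained share. Of 12 genes in this group 3 were higher, 6 lower and 3 did not pass, and the median kept was 15.1%. Over all genes 9.92% were higher and 51.1% lower. Among genes at 200.3 to 437 counts per kb, the range of the 3 that gained, 39.3% were higher. Snx2, which pairs with SNX5 or SNX6 in the tubule-forming coat that returns receptors to the Golgi and the surface, had its region at chr18:53176162-53203961, over 62.1% of the gene. It carried 8895, 9360 and 10784 counts with DMSO and 5422, 4995 and 5008 with SGC0946. Every SGC0946 library was lower than every DMSO library, yet Snx2 kept 53.1% ± 3.44. Only 0.838% of the tested genes kept more. Its share rose from 532, 551 and 552 counts per M to 1731, 1661 and 1696, a log2 change of 1.64 ± 0.035 (adjusted p = 2.4e-48).

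Snx5 (chr2:144251047-144274052), named here after its values were seen, had 5704, 6179 and 6823 counts with DMSO and 2319, 2168 and 2303 with SGC0946. It kept 36.3% ± 2.04 and rose in share by 1.09 ± 0.040 (adjusted p = 4.5e-35), with all SGC0946 shares above all DMSO shares. The mitochondrial nuclease gene Mgme1 covers 13.7% of the region. Snx8 (chr5:140350689-140389520), another endosomal BAR protein, had 16496, 16011 and 18377 DMSO counts and 6078, 5557 and 5766 SGC0946 counts. At 437 counts per kb with DMSO it was the densest of the 60 genes. It kept 34.2% ± 1.71, and its share rose by 1.00 ± 0.034 (adjusted p = 1.6e-36).

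None of the other BAR genes passed as higher. Snx1, the closest relative of Snx2, kept 18.1% with a change of share of 0.08 ± 0.044 that did not pass (adjusted p = 0.166). Its SGC0946 shares of 290 to 313 counts per M nevertheless all lay above its DMSO shares of 280 to 285. Snx18, an SH3 and BAR protein of endocytosis, had 9560, 9267 and 10705 counts with DMSO and 1731, 1675 and 1744 with SGC0946. Its density of 366 counts per kb was above that of Snx2, but its change of share was 0.03 ± 0.039 (adjusted p = 0.649) and the shares of the groups overlapped. Its call depended on the scaling, at 0.17 with TMM factors (adjusted p = 0.043) and -0.37 with scaling on the sparsest regions (adjusted p = 0.038). Snx9, a relative of Snx18 active at the plasma membrane, had 3667, 3345 and 3994 DMSO counts against 443, 396 and 376 and fell in share by 0.63 ± 0.055 (adjusted p = 1.4e-15). Snx30, which forms recycling and autophagy complexes with SNX4, had the most counts of the 60 genes (22776 to 26589 with DMSO) and kept 15.4%. Snx4, Snx6 and Snx32 fell in share by 0.54, 0.58 and 0.53, and Snx7 by 0.42, and Snx33 did not pass.

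Related genes were then compared within each library, because a ratio of 2 genes of the same library is free of the scaling between libraries. These 9 pairs were picked after the data had been seen. With 3 libraries against 3 the exact 2-sided permutation test cannot give a p under 0.1, and the smallest adjusted value over the 9 pairs was 0.15, so none could pass. The ratio of Vps26a to Vps26b counts was 4.73, 4.89 and 4.94 with DMSO and 8.31, 7.93 and 9.87 with SGC0946, a 1.79-fold increase (log2 0.84 ± 0.098, SE; exact p = 0.1). The groups did not overlap, and the Vps26a share of the pair was larger in each SGC0946 library.

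The ratio of Vps4b to Vps4a went from 4.1, 4.5 and 4.2 to 9.22, 8.71 and 9.16, or 2.12-fold. The ratio of Snx2 to Snx1 went from 1.90, 1.94 and 1.94 to 5.53, 5.61 and 5.85, or 2.94-fold. For Snx5 to Snx6 it went from 4.96, 6.10 and 5.37 to 18.4, 15.5 and 18.4, or 3.19-fold, with no overlap in any of these pairs. Smaller shifts without overlap were seen for Snx18 to Snx9 (1.58-fold) and Vps37c to Vps37b (1.22-fold). How often the ratios of gene pairs at large lie apart was not tested. Of single genes, 11.8% had SGC0946 shares entirely above the DMSO shares and 57.8% entirely below. The ratios of Vps33a to Vps33b, Snx30 to Snx7 and Snx10 to Snx11 overlapped between treatments. The exact p was 1, 0.2 and 0.8 for these pairs, and their log2 changes were -0.06 ± 0.27, 0.28 ± 0.15 and -0.04 ± 0.19.

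**Figure D3:**
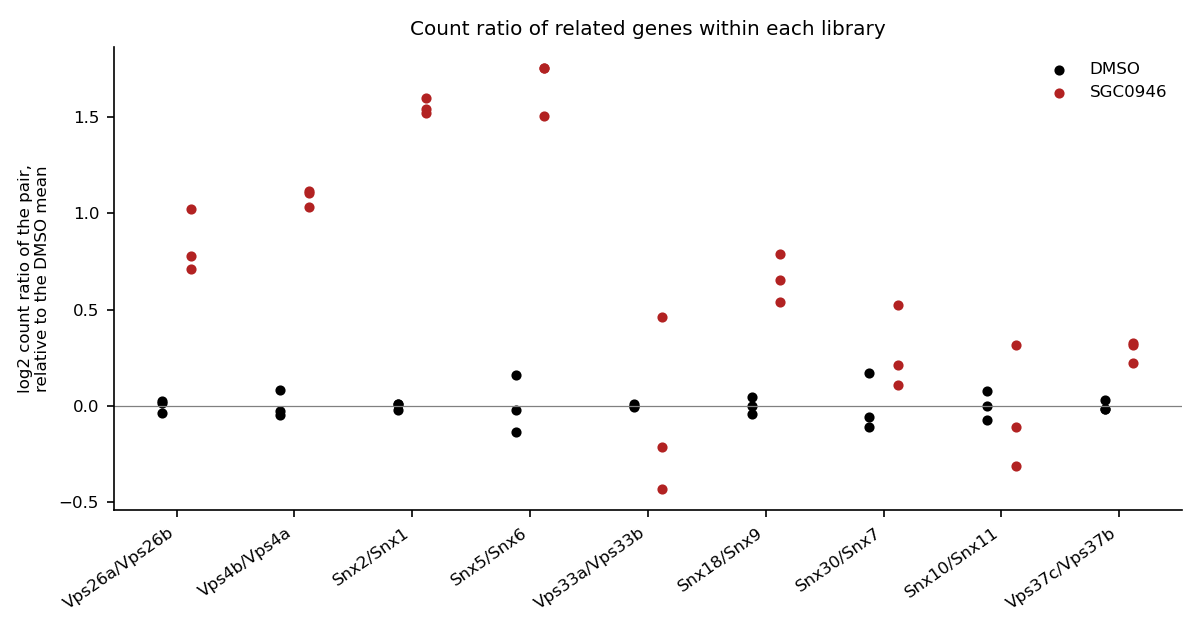
Ratio of the counts of 2 related genes in the same library (y axis, log2, relative to the DMSO mean of the pair) for 9 pairs (x axis), 1 point for each of the 3 DMSO and 3 SGC0946 libraries. The groups are apart in 6 pairs, most in Snx5 to Snx6, where the mean difference is 1.67. They overlap for Vps33a to Vps33b, Snx30 to Snx7 and Snx10 to Snx11. How often gene pairs at large lie apart was not tested.

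Among ESCRT genes 1 was higher, 5 were lower and 2 did not pass, with a median of 12.4% kept. The shares over all genes were 9.92% higher and 51.1% lower. Vps4b (chr1:106784626-106796972) had 2535, 2737 and 2985 counts with DMSO and 682, 575 and 632 with SGC0946. It kept 22.9% ± 1.56 and rose in share by 0.42 ± 0.052 (adjusted p = 2.5e-10), with no overlap of the shares. Under the scaling on the sparsest regions this call was lost (adjusted p = 0.938). Its partner Vps4a, singled out after its values were seen, had 617, 608 and 716 against 74, 66 and 69 counts and kept 10.8%.

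Vps37b, an ESCRT-I subunit also named after its values were seen, was as dense as Vps4b (230 against 223 counts per kb) yet kept 10.4% ± 0.706, and its share fell by 0.72 ± 0.047 (adjusted p = 3.0e-21). The lowest percentage of the 60 genes, 9.52% ± 1.37, was that of Vps28, another ESCRT-I subunit. It rested on 42 counts in each DMSO library and 5, 3 and 4 with SGC0946, and its change of share of -0.84 ± 0.41 did not pass (adjusted p = 0.132), except with scaling on the sparsest regions (-1.26, adjusted p = 0.0054). Vps25 of ESCRT-II, with 45 to 53 DMSO counts, kept 22.8% and did not pass either.

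HOPS and CORVET, the tethers of late and early endosomes, are built on a shared core of VPS11, VPS16, VPS18 and VPS33A. Of the 9 genes of this group 8 were lower in share, 1 did not pass and none was higher, and the median kept was 11.9%. Among all genes 51.1% were lower and 9.92% higher. The group ran from 83.1 to 301 counts per kb. Of all genes at 40.7 to 101, 105 to 183 and 200.3 to 437 counts per kb, 37.4, 82.6 and 37.2% were lower. Vps33a, the core's SNARE-binding Sec1/Munc18 protein, had 545, 573 and 649 counts with DMSO and 73, 61 and 56 with SGC0946. It kept 10.8% ± 1.03, and its share fell by 0.67 ± 0.11 (adjusted p = 1.2e-06), with the groups apart. The HOPS-specific Vps39 and Vps41 kept 10.8 and 11.6%, and the CORVET-specific Vps8 kept 11.9%. Vps18 was the densest of the group at 301 counts per kb and kept 15.6%.

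Vps45, an early endosomal Sec1/Munc18 protein, did not pass (0.04 ± 0.058, adjusted p = 0.668; 0.18 with TMM factors, adjusted p = 0.040, and -0.37 with scaling on the sparsest regions, adjusted p = 0.014), but the region that stood for it lies almost wholly in its neighbour. Of its 9010 bp 93.6% is in Plekho1 and 104 bp are in Vps45. The region with its longest overlap in Vps45 (chr3:96054925-96058121) had 303, 350 and 355 counts with DMSO and 46, 40 and 41 with SGC0946, kept 12.6% and fell in share by 0.44 ± 0.14 (adjusted p = 0.0111).

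GARP and EARP, the tethers for traffic from endosomes to the Golgi and back to the surface, share VPS51, VPS52 and VPS53. Of 5 genes 4 were lower and 1 did not pass, beside 51.1% lower among all genes, and the median kept was 12.2%. Vps51 had 612, 656 and 761 counts with DMSO and 77, 84 and 70 with SGC0946 and fell in share by 0.58 ± 0.10 (adjusted p = 3.9e-06). Vps52 had 1105, 1144 and 1278 against 202, 226 and 223 counts, and its change of 0.11 ± 0.072 did not pass (adjusted p = 0.279). It was higher with TMM factors (0.25, adjusted p = 0.0085) and with DESeq2 size factors (0.22, adjusted p = 0.039) and lower with scaling on the sparsest regions (-0.30, adjusted p = 0.035). The ribosomal protein gene Rps18 holds 55.7% of the region of Vps52. Vps54, which is specific to GARP, kept 14.4%, and Vps50, which is specific to EARP, kept 11.4%.

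Among the VPS13 proteins, which carry lipids between organelles at contact sites, 1 was higher and 3 were lower, beside 9.92% and 51.1% of all genes. Vps13d had 11175, 11380 and 12935 counts with DMSO and 3853, 3435 and 3481 with SGC0946 in its top region (chr4:144893009-144922248). It kept 30.3% ± 1.81 and rose in share by 0.83 ± 0.036 (adjusted p = 1.1e-30). That region lies wholly inside the spans of both Vps13d and the retinal reductase gene Dhrs3, and begins 272757 bp downstream of the Vps13d start. The region that spans the Vps13d start and overlaps no other coding gene (chr4:145182409-145195311) had 1676, 1574 and 1825 DMSO counts against 217, 213 and 206. It kept 12.5% and fell in share by 0.45 ± 0.068 (adjusted p = 1.2e-07), so the direction for Vps13d rested on which region stood for it. Vps13a, Vps13b and Vps13c kept 12.2, 12.3 and 14.9%.

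The sorting nexins without a BAR domain (Snx17, Snx27, 4 of the PXA and RGS group and 8 others tested) held no gene with a higher share. Among all genes 9.92% were higher, so none among so few is close to that share. Snx27, whose PDZ domain links receptors to retromer, had 2509, 2462 and 2783 counts with DMSO and 301, 329 and 297 with SGC0946 and fell in share by 0.52 ± 0.059 (adjusted p = 3.5e-11). Snx17, the cargo adaptor of retriever, kept 12.9% and fell by 0.41 ± 0.081 (adjusted p = 2.8e-05). Its region also reaches into Eif2b4 and Zfp513. In the PXA and RGS group, proteins of contacts with the endoplasmic reticulum, 3 were lower and 1 did not pass, beside 51.1% lower among all genes. Snx13 had 8576, 9343 and 10504 against 1675, 1485 and 1507 counts and a change of -0.06 ± 0.040 (adjusted p = 0.348), which was a call with scaling on the sparsest regions (-0.46, adjusted p = 0.0072). Snx19 fell by 0.52 ± 0.15 (adjusted p = 0.0033), a call lost with DESeq2's Wald test (-0.41, adjusted p = 0.117).

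Of the remaining 8 PX genes with a region 5 were lower and 3 did not pass, beside 51.1% lower among all genes. Snx29 had 3821, 3887 and 4406 counts with DMSO and 347, 411 and 407 with SGC0946 in its top region (chr16:11424138-11448567). It kept 9.62% ± 0.676, less than 99.4% of tested genes, and fell in share by 0.83 ± 0.056 (adjusted p = 1.6e-20). Snx3, which directs retromer to a separate set of cargo, kept 16.3% and did not pass. Snx15 had 18 to 23 DMSO counts and 3 to 5 SGC0946 counts, and its change of 0.32 ± 0.48 did not pass (adjusted p = 0.705). Vps72 and Vps9d1 match the naming rule without belonging to a sorting complex. Vps72 encodes a chromatin remodelling subunit and fell by 0.39 ± 0.15 (adjusted p = 0.0342), a call lost with TMM factors, DESeq2 size factors, DESeq2's Wald test, the replicate block, and without DMSO replicate 3, SGC0946 replicate 1 or SGC0946 replicate 3. Vps9d1 fell by 0.46 ± 0.14 (adjusted p = 0.0094), and 82.7% of its region is in Zfp276. The region with its longest overlap in Vps9d1 had a change of -0.13 ± 0.30 that did not pass (adjusted p = 0.808), and the call was also lost with TMM factors, DESeq2 size factors, DESeq2's Wald test and without SGC0946 replicate 1.

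The genes that gained share were all among the densest. Of the 20 genes with the most DMSO counts per kb (200.3 to 437), 7 were higher, 7 lower and 6 did not pass, and they kept a median of 16.9%. In the middle 20 (105 to 183 counts per kb) none was higher and 19 were lower, with 11.9% kept, and in the sparsest 20 (40.7 to 101) none was higher and 16 were lower, with 12.3% kept. Among coding genes at large, too, higher calls were most frequent in the densest range. Of 1671 genes in the density range of the densest 20, 39.3% were higher and 37.2% lower. In the middle range 1.58% of 2717 genes were higher and 82.6% lower, and in the sparsest range 0.853% of 3282 genes were higher and 37.4% lower. Across the 60 genes Spearman's rho between density and change of share was 0.41, and across all 8833 genes it was -0.05. These describe genes of the same 6 libraries, and the density is built from the DMSO counts that also enter the change. Dense genes differed among themselves: Vps29 at 301 and Vps37b at 230 counts per kb fell in share, and Snx18 at 366 did not pass.

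**Figure D4:**
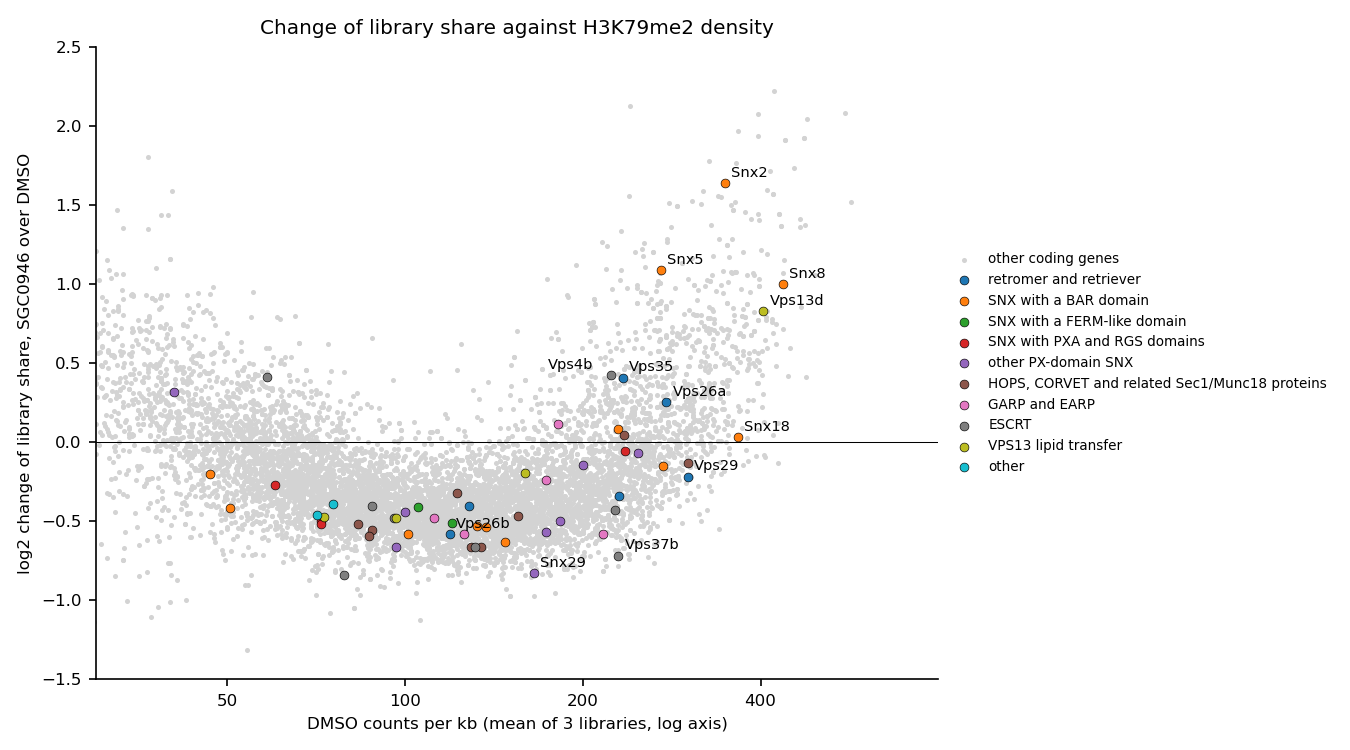
Change of library share (y axis, log2 of SGC0946 over DMSO) against DMSO counts per kb (x axis, log scale, mean of 3 libraries) for the 60 genes in colours by role and other coding genes in grey. Other genes beyond the axis limits are not drawn; all 7 genes with a higher share lie at 200.3 counts per kb or more, while Vps29, Snx18 and Vps37b are as dense without a gain.

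The regions of these genes mostly began at the gene's start and ran into its body. Of the 39 genes with a RefSeq start, 24 had it inside the top region and 28 inside any region. The top region then reached 13601.5 bp downstream in the median, from 2733 bp in Vps52 to 88394 bp in Snx30. Over the 60 genes the top region covered a median of 27.4% of the gene. This ran from 0.174% in Vps45 to the whole of Snx17 and Snx18, and was 5.60% in Snx29. There was 1 region in 20 genes, 2 to 4 in 24 and 5 or more in 16.

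**Figure D5:**
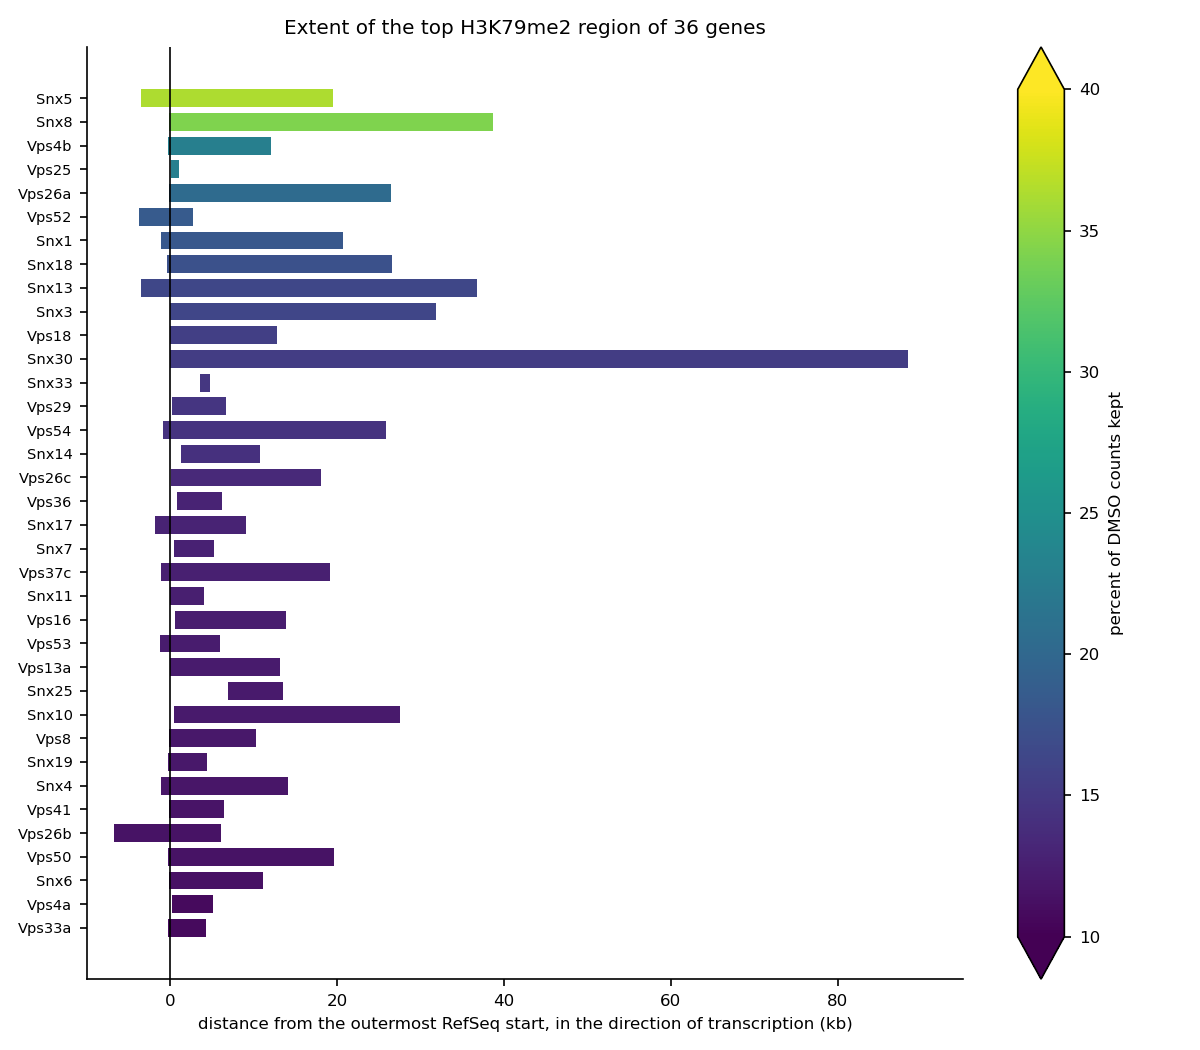
Extent of the top region relative to the annotated start (x axis, kb, positive in the direction of transcription) for 36 Vps and Snx genes, ordered and coloured by the percentage of DMSO counts kept. The 3 genes whose top region begins 20 kb or more from the start (Snx29, Vps45 and Vps13d) are not drawn, and the longest bar is that of Snx30, reaching 88394 bp.

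Regions of the same gene did not always keep the same part of their counts. In Snx2 the top region kept 53.1% at 348 counts per kb. The 4 sparse regions beyond it, at 39.1 to 47.3 counts per kb, kept 17.3 to 23.9%. The background, taken from the sparsest 25% of regions, was 26.5 to 31.3 counts per kb with DMSO and 5.51 to 7.41 with SGC0946. The part of background in what these 4 sparse regions kept was not tested. Snx24 carried 2 broad regions on chromosome 18. The region at chr18:53244117-53277583 had 9855, 10380 and 11594 DMSO counts against 2219, 1941 and 1955 and kept 19.2% at 317 counts per kb. The longer one that stood for the gene (chr18:53279581-53352825) had 12527, 11679 and 13880 against 1590, 1387 and 1409 counts and kept 11.5% at 173 counts per kb. Both fell in unscaled counts, the denser of the pair by less. The call of Snx24 as lower in share (-0.57) rested on the longer region. The denser region kept more than the top region of Vps52 (18.5%), whose change of share was 0.11. Its own change of share is not given here, so the direction for Snx24 holds for the longer region only. In Snx29, 46 regions with a mean of at least 20 DMSO counts kept 9.06 to 31.1%. The region at 31.1% held 25.4 DMSO counts per kb, within the background. The regions of 12 genes overlapped another coding gene, and these divided into 3 higher, 7 lower and 2 that did not pass, against 4, 35 and 9 of the other 48.

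Other genes of the endosomal system were listed by role, 60 in all, and 57 were tested. All 57 fell in unscaled counts, as did 99.9% of coding genes. In share 3 were higher, 34 lower and 20 did not pass, beside 9.92% higher and 51.1% lower among all genes, with a median of 13.5% kept. Lrp1, a large scavenging and lipoprotein receptor, had a mean of 5198 ± 360 counts with DMSO (SD, n = 3) and 1243 ± 40.0 with SGC0946. It kept 23.9% and rose in share by 0.48 ± 0.042 (adjusted p = 1.3e-15). The early endosome tether Eea1 (0.13 ± 0.041, adjusted p = 0.0103) and the ESCRT adaptor Pdcd6ip (0.15 ± 0.043, adjusted p = 0.0059) rose by less. None of the 3 was higher under the scaling on the sparsest regions.

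By list, the WASH, COMMD and CCC genes, which build the actin patches and scaffolds around retromer and retriever, gave 8 lower and 8 not passing of 16. ESCRT genes not named Vps gave 1 higher, 15 lower and 4 not passing of 20. Phosphoinositide enzymes of endosomes gave 6 lower and 3 not passing of 9, and tethers and partners 1 higher, 5 lower and 1 not passing of 7. Beside these lists, 9.92% of all genes were higher and 51.1% lower, with a median of 13.9% kept. Of the sorted receptors, cargo of these routes, Sorl1 (a mean of 13.3 DMSO counts) was not tested. The other 5 had 1 higher, none lower and 4 not passing, with a median kept of 18.8%. Among those 4, the mannose 6-phosphate receptor genes M6pr and Igf2r had changes of share of 0.14 and -0.10, the transferrin receptor gene Tfrc 0.18 and Sort1 -0.32.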

How the data were processed

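The authors deposited 1 table of whole-number read counts per region for the 6 ChIP libraries, with mm10 coordinates. The tools they list, per the submitters' processing notes, are R 3.6.3, ChIPseeker 1.20.0, HOMER 4.11.1, HISAT2 and bedtools 2.27.0. Region calling and read filters, not given in the sources used here, could change the counts. The input sample was not analysed here. Regions were assigned to RefSeq gene spans of GRCm38.p6, without exons, by any overlap, using Python 3.11.15 and pandas 2.3.3. All regions entered 1 quasi-likelihood fit of edgeR 4.0.16 (R 4.3.3) after filterByExpr, and Benjamini-Hochberg adjusted p-values under 0.05 were called, with library totals as sizes for shares and equal sizes for unscaled counts. The filter kept 23367 regions for shares, and all 60 genes passed it. Standard errors of log2 changes come from the change and its F value, and the biological coefficient of variation was 3.57%. Fold changes of low counts are imprecise, and counting error grows as counts fall.

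Members and lists were chosen with earlier results of these data known. Genes named by rule were those with the highest and lowest change of share in each role group, core retromer, the 5 densest and Vps72, and others are marked as chosen after their values were seen or are given as range or list values. Alternatives were TMM and DESeq2 1.42.0 size factors, DESeq2's Wald test, scaling on the sparsest 25% of regions, count filters, a replicate block, each library left out, and other ways to assign regions. Libraries of a group differed by more than sampling noise (chi-square per degree of freedom 1.32 to 2.38). The edgeR step was tested on simulated data for this comparison: over 24026 regions it recovered 28, 46, 88 and 98% of regions changed 1.25, 1.5, 2 and 4-fold, with 2 false calls. The simulation changed 50 regions per fold in either direction and held the shares of all others equal, unlike the data. It therefore does not test how the calls depend on the scaling.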

Additional observations from a re-analysis of the deposited data

How the results depend on the processing

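The counts per direction depended most on the scaling. Genes higher in share numbered 7, but 11 with TMM factors, 4 when scaled to the 25% of regions that were sparsest, and 4 when regions overlapping another coding gene were left out, which also left fewer genes. Genes lower in share numbered 42, but 30 with TMM factors, 31 with DESeq2 size factors in edgeR, 26 with DESeq2's Wald test, which changes the size factors and the test together, and 49 with the sparsest regions. The median change of all genes was -0.29 with library totals, -0.15 with TMM factors, -0.18 with DESeq2 size factors and -0.71 with the sparsest regions, and that of the 60 genes was -0.43, -0.29, -0.32 and -0.84. Leaving out each library gave 7 higher in every case and 36 to 41 lower. Other endosomal genes were 5 higher with TMM and with DESeq2 size factors and 0 with the sparsest regions, and 18, 19 and 16 lower with TMM factors, DESeq2 size factors and the Wald test. The median kept was 13.7% over summed regions, 8.94% after subtraction of a background per kb, and 12.3 to 13.4% with each library left out. In unscaled counts all 60 genes fell under each alternative run for that test. The replicate numbers did not pair the samples (correlations 0.00999, -0.114 and -0.0136). With a replicate block 7 genes were higher and 38 lower, and Vps72 was lost (adjusted p = 0.0551).

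Changes of share turned direction in these cases. Snx13 was 0.084, 0.057 and 0.057 with TMM, DESeq2 size factors and the Wald test. With scaling on the sparsest regions Snx15 was -0.10, Snx18 -0.37, Vps26a -0.15, Vps35 -0.00081, Vps45 -0.37 and Vps52 -0.30. With each library left out Snx18 ran from -0.00024 (without SGC0946 replicate 3) to 0.051. With regions whose longest overlap is in the gene Vps13d was -0.45 and Vps45 -0.44; the top region of Vps13d overlaps Dhrs3 equally and was there given to Dhrs3, first in the alphabet. The log2 ratio change of Vps33a to Vps33b was 0.00017 over summed regions, 0.71 after background subtraction, and 0.013 and 0.12 without SGC0946 replicate 2 and 3. That of Snx10 to Snx11 was 0.30 after background subtraction, 0.00027 without DMSO replicate 2, 0.00032 and 0.10 without SGC0946 replicate 1 and 2, and -0.21 without SGC0946 replicate 3. That of Snx30 to Snx7 could not be given after background subtraction. Of 24 genes named by rule, 11 kept their call, or its absence, in every setting run. Depth limits the genes under 50 counts, such as Vps28 and Snx15.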
